A study of Mus musculus with 6 samples.

Results

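Very wide methylation peaks of hematopoietic stem cells (HSC) were followed into common myeloid progenitors (CMP) and into erythroblasts (ERY), nucleated cells on the way to red cells. A very wide peak was an autosomal peak of the HSC list that spanned 2000 bp or more, and 897 of the 85797 HSC peaks were chosen by this rule on their width. The lists came from MBD2 pulldown, which enriches DNA fragments that carry methylated CpG sites, followed by sequencing. All 3 cell types were from female C57BL/6 mice with no genetic change or treatment named in the labels. HSC were sorted from adult bone marrow as lineage-negative cells positive for Sca-1 and c-kit, a gate that also holds multipotent progenitors. CMP were sorted as lineage-negative, c-kit-positive cells without Sca-1, a gate that also holds other committed myeloid progenitors. The sources used here do not give the origin of the ERY or the number of mice per preparation. Each cell type had 1 enriched library with a peak list, and the 3 supernatant libraries were not analysed here. The lists hold positions on mm9 and no read counts, so depth is unknown and cell identity could not be checked against markers.

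Methylation of CpG sites is laid down and copied at cell division by DNA methyltransferases, and it is found over repeats, imprinted regions and inactive CpG-rich sequence. MBD2 binds symmetrically methylated CpG sites through its methyl-CpG-binding domain, so CpG-dense methylated stretches are pulled down more readily than CpG-poor ones. A very wide peak is a long stretch that was called as bound without a break. A later list can leave such a stretch whole, shorten it at its ends, divide it into pieces or hold no peak there. A position without a peak is one where none was called, not one shown to be unmethylated. Peaks are named by coordinates, because no gene annotation on mm9 was used here.

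The 897 very wide peaks covered 2.28 Mb. They were 1.08% of the 83430 autosomal HSC peaks and held 3.38% of the bases those peaks covered. Their widths ran from 2000 to 19797 bp, with a median of 2295 bp and an interquartile range of 2115 to 2666 bp, against a median of 745 bp in the other 82533 autosomal peaks. These widths chose the peaks and are given as a description. The narrowest peaks inside the rule lay at chr1:36827254-36829253 and chr7:105646497-105648496, both 2000 bp wide, and at chr2:30907185-30909185, 2001 bp wide. CMP peaks covered 61.6%, 63.0% and 86.1% of these 3 peaks in that order, and ERY peaks covered 48.6%, 0% and 84.2%. The widest peaks just outside it, all 1999 bp, lay at chr8:3495155-3497153, chr11:16414087-16416085 and chr14:104997405-104999403. CMP peaks covered 76.9%, 90.9% and 72.9% of them, and ERY peaks covered 65.2%, 67.2% and 71.3%.

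Most very wide peaks had a peak in both later lists. The CMP list held 49054 autosomal peaks and the ERY list 27266, against 83430 in HSC. Of the 897, 860 overlapped a CMP peak by at least 1 bp (95.9%, 95% exact binomial interval 94.4 to 97.1%), where 56.9% of all autosomal HSC peaks did. An ERY peak overlapped 761 of them (84.8%, 82.3 to 87.1%), where 31.1% of all autosomal HSC peaks had one. Both lists had a peak over 759 (84.6%), CMP alone over 101 (11.3%), ERY alone over 2 and neither over 35 (3.90%). Among all autosomal HSC peaks these classes made up 29.8%, 27.2%, 1.34% and 41.7%. Each cell type had a single library, so differences between cell types or between sets of peaks were not tested. The intervals cover counting error only and treat peaks as independent.

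The share overlapped was higher in each wider class up to 3000 bp, below the 2000 bp bound as well as above it. Of peaks in the 250 bp class just under 2000 bp, 91.7% (interval 89.6 to 93.5%) had a CMP peak and 72.1% (68.8 to 75.2%) an ERY peak. Of those from 2000 to under 2250 bp, 93.5% (90.6 to 95.7%) had a CMP peak and 79.7% (75.4 to 83.5%) an ERY peak. All 122 peaks of 3000 bp or more had a CMP peak. Of the 87 from 3000 to under 4000 bp, 82 had an ERY peak (94.3%, 87.1 to 98.1%), and of the 35 of 4000 bp or more, 33 had one (94.3%, 80.8 to 99.3%). A single shared base is easier to reach on a longer peak, so the part of each peak that stayed covered was measured as well.

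**Figure D1:**
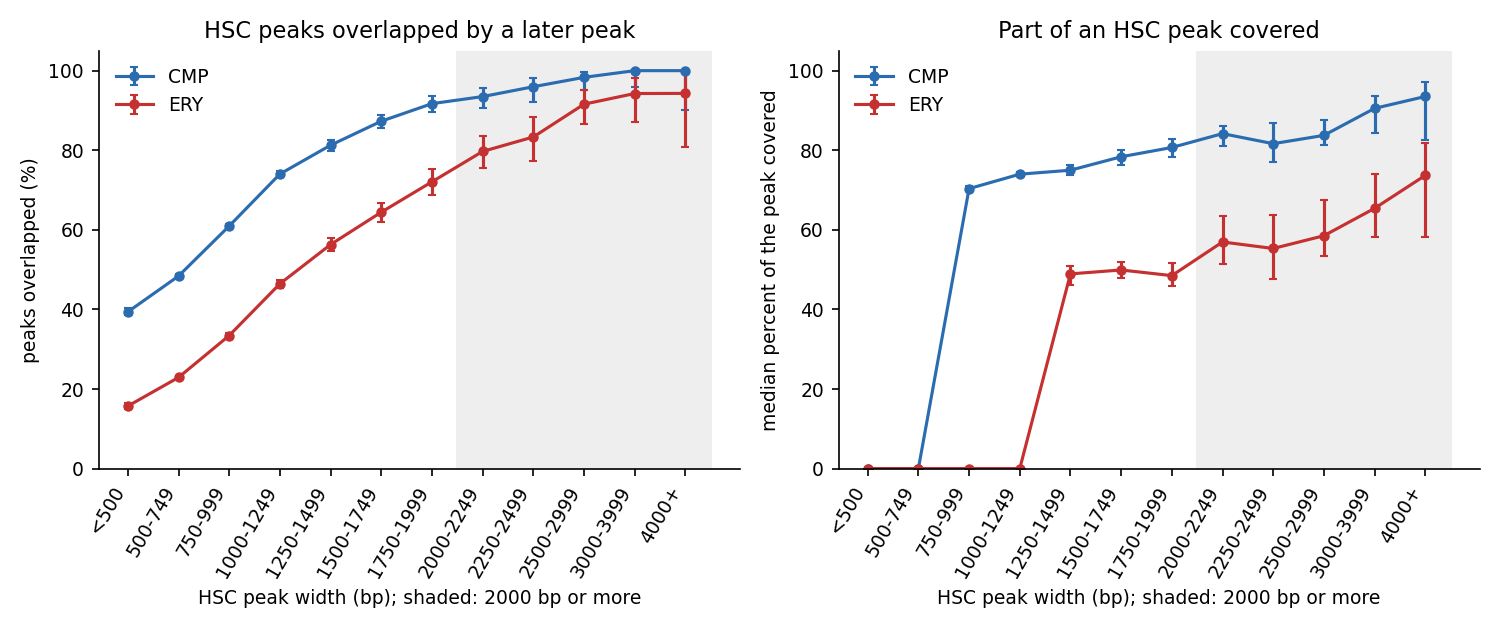
HSC peaks by width class in bp (x axis), with the share overlapped by a later peak in percent (left) and the median percent of the peak covered (right), for CMP in blue and ERY in red. Bars are 95% intervals from counting alone, and the shaded classes hold the very wide peaks, where 79.7 to 94.3% of peaks had an ERY peak.

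CMP peaks covered a median of 84.5% of a very wide peak (interval of the median 82.7 to 86.1%) and ERY peaks a median of 58.5% (56.5 to 63.0%). Over their summed length, 76.8% of bases were covered in CMP and 56.8% in ERY, against 51.1% and 27.4% in the other autosomal peaks. The median covered by CMP was 84.2% at 2000 to under 2250 bp and 93.5% at 4000 bp or more. The median covered by ERY was 56.9% at 2000 to under 2250 bp (51.4 to 63.4%) and 73.7% at 4000 bp or more (58.2 to 81.9%), so these intervals overlap. Across the 897 peaks, HSC width and percent covered were weakly related, with a Spearman rho of 0.14 for CMP and 0.13 for ERY. All 3 values of a peak lie on 1 stretch of sequence, so rho is a description.

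Very wide peaks tended to be covered in part, while narrower peaks were mostly covered well or not at all. In ERY, 136 very wide peaks (15.2%, interval 12.9 to 17.7%) were at least 90% covered, where 10.8% of all autosomal HSC peaks were. Under 10% was covered in 138 (15.4%, 13.1 to 17.9%), against a background of 69.0%. The other 623 lay between these bounds. So did most of the 784 HSC peaks from 1750 to under 2000 bp, so this was not particular to very wide peaks. Of those 784, 10.8% were at least 90% covered in ERY and 28.1% under 10%. Among the peaks that had an ERY peak at all, ERY covered a median of 66.5% of a very wide peak (63.9 to 70.7%) and 83.4% of another autosomal peak (83.1 to 83.7%). In bases the order was the other way, with medians of 1646 bp and 674 bp. In CMP, 341 very wide peaks (38.0%, 34.8 to 41.3%) were at least 90% covered, where 27.6% of all autosomal HSC peaks were. Under 10% was covered by CMP in 37 (4.12%), against a background of 43.2%.

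**Figure D2:**
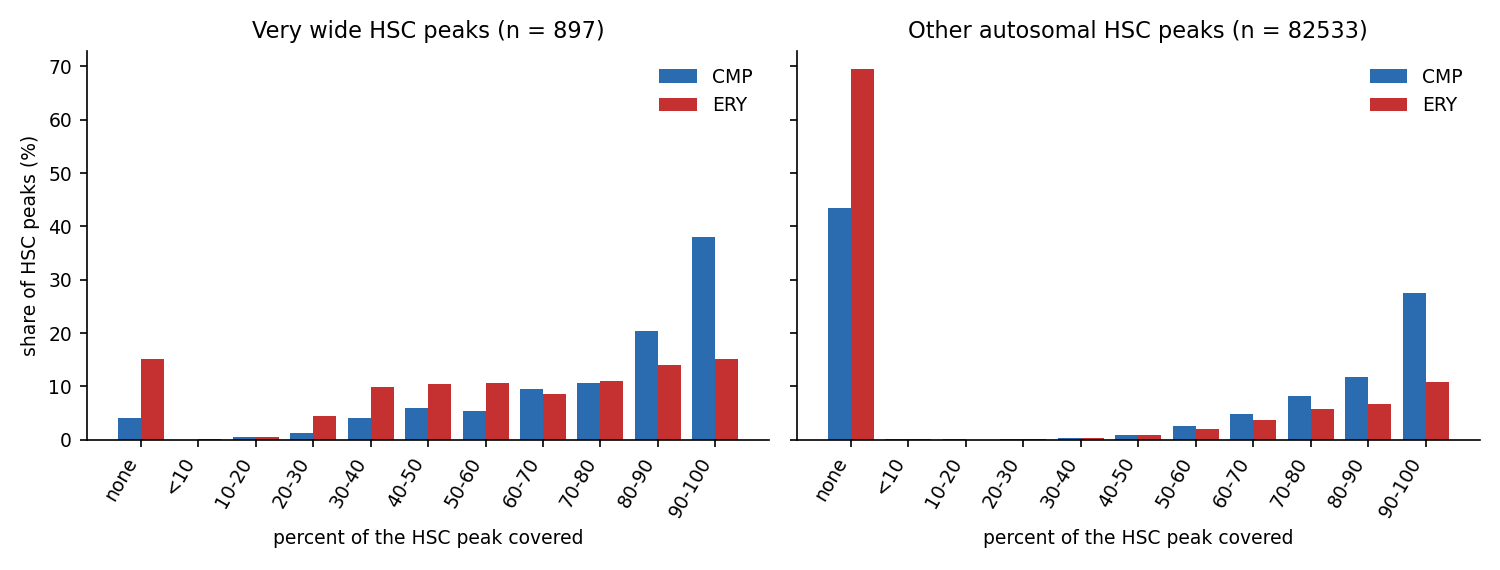
Share of HSC peaks in percent (y axis) by the percent of the peak covered (x axis), for CMP in blue and ERY in red, in very wide peaks (left) and other autosomal HSC peaks (right). In the left panel 15.2% of peaks have no ERY peak and most of the rest are spread between 20 and 100% covered, with 2 below 10% and 5 from 10 to 20%, and in the right panel 69.5% have no ERY peak and few are covered by less than 50%.

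The part covered in ERY followed the part covered in CMP. Of the 341 very wide peaks at least 90% covered in CMP, 109 were at least 90% covered in ERY, 163 were covered from 50 to 90%, 54 by less than 50%, and 15 (4.40%) had no ERY peak. Of the 106 with a CMP peak over less than 50% of their length, 39 (36.8%) had no ERY peak. Of the 37 without a CMP peak, 2 had an ERY peak (5.41%, interval 0.661 to 18.2%). Of other autosomal HSC peaks without a CMP peak, 96.9% had no ERY peak, near the 94.6% of very wide peaks. Of other peaks at least 90% covered in CMP, 29.1% were at least 90% covered in ERY, near the 32.0% of very wide peaks. However, 44.6% of them had no ERY peak, against 4.40%. With a CMP peak over less than 50% of the length, 64.0% of other peaks had no ERY peak, against 36.8%. The 101 very wide peaks with a CMP peak and no ERY peak were covered by CMP over a median of 60.4% (50.1 to 70.2%), against 87.2% (85.2 to 88.5%) in the 759 with both. Spearman's rho between the 2 percentages was 0.60 over the 897 peaks. CMP covered more of the peak than ERY in 715 cases (79.7%), ERY more than CMP in 135 (15.1%), and both the same in 47 (5.24%). Among all autosomal HSC peaks these shares were 45.7%, 9.33% and 45.0%. Peaks with neither a CMP nor an ERY peak, 41.7% of all autosomal HSC peaks, count as the same. The bases covered in ERY lay mostly inside those covered in CMP, namely 95.7% of them in very wide peaks and 91.9% in other autosomal peaks. Beside these shares, CMP covered 76.8% of all bases of very wide peaks and 51.1% of all bases of the other autosomal peaks. In all, 54.3% of the very wide bases were covered in both later lists, 22.5% in CMP alone, 2.43% in ERY alone and 20.8% in neither.

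Positions near the ends of the very wide peaks were covered less often than positions further in. At the outermost base of a very wide peak, 31.2% of the 1794 edges were covered in CMP and 17.8% in ERY. These shares were 66.1% and 43.0% at 200 bp inside the edge, and 80.7% and 59.5% at 500 bp. From 500 to 1000 bp inside they moved little, ending at 82.9% in CMP and 63.4% in ERY. The median stretch left uncovered at an edge of an overlapped peak was 73 bp in CMP (interval 60 to 86 bp) and 189 bp in ERY (174 to 210 bp). Where a peak has a single later piece, as 606 did in CMP and 582 in ERY, whatever is uncovered counts as edge. Coverage rose inward from the edges of the other autosomal HSC peaks too. There it was 27.9% in CMP and 12.6% in ERY at the outermost base, and 42.4% and 20.1% at 100 bp inside. At 500 bp inside, where only peaks of 1000 bp or more contribute, it was 73.6% and 47.2%.

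**Figure D3:**
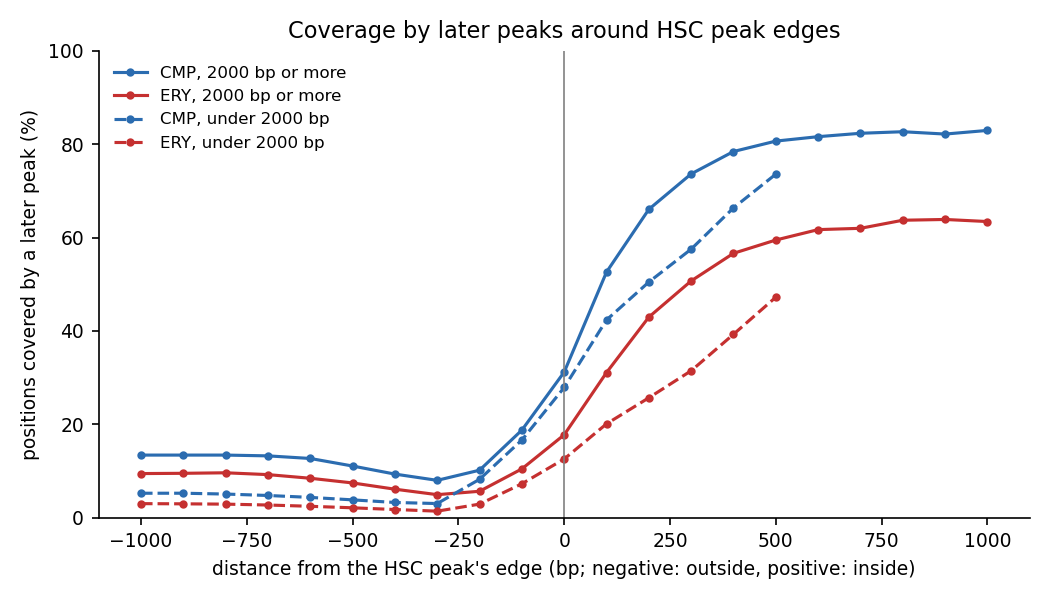
Percent of positions covered by a later peak (y axis) against the distance from an HSC peak's edge in bp (x axis, negative outside, positive inside), with both edges of each peak pooled. Solid lines are very wide peaks and dashed lines other autosomal HSC peaks, drawn up to 500 bp inside, where only peaks of 1000 bp or more contribute. Coverage of very wide peaks reaches 80.7% in CMP and 59.5% in ERY at 500 bp inside the edge.

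A part of the very wide peaks was divided into several later peaks. In CMP, 254 had 2 or more peaks over them (28.3%, interval 25.4 to 31.4%), where 0.852% of all autosomal HSC peaks did. In ERY, 179 did (19.96%, 17.4 to 22.7%), against a background of 0.470%. A narrower peak has less room for a second piece. The share with 2 or more ERY peaks was 7.27% at 1750 to under 2000 bp and 12.8% at 2000 to under 2250 bp. The gap between neighbouring pieces had a median of 137 bp in CMP (interquartile range 60 to 279 bp, n = 274) and 187 bp in ERY (74 to 383 bp, n = 198). In ERY 15 very wide peaks had 3 pieces and 2 had 4. At chr5:125506529-125511508 (4980 bp) 2 CMP peaks stood over the HSC peak, covering 85.7% of it. Over the same stretch 4 ERY peaks of 494 to 1364 bp covered 75.7%. At chr9:110530028-110535951 (5924 bp) 3 CMP peaks covered 82.5% and 4 ERY peaks 75.2%. At chr3:38352876-38356749 (3874 bp) 1 CMP peak covered the whole stretch and 3 ERY peaks covered 86.6%, with gaps of under 100 bp between them.

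Most of these regions held no later peak as wide as 2000 bp, though the later peaks over them were wider than those elsewhere. The rule set this bound on HSC widths alone, and their median was 2295 bp, so fewer such widths in another list are favoured by the rule. A CMP peak of 2000 bp or more stood over 355 of the 897 (39.6%, interval 36.4 to 42.9%) and an ERY peak of that width over 188 (20.96%, 18.3 to 23.8%). Both were found over 157 (17.5%). Among all autosomal HSC peaks these shares were 0.787%, 0.307% and 0.233%. Peaks of 2000 bp or more made up 1.05% of the autosomal CMP list and 0.800% of the shorter ERY list, against 1.08% in HSC. In the other direction, 358 of the 516 autosomal CMP peaks of 2000 bp or more overlapped a very wide HSC peak (69.4%, 65.2 to 73.3%). Of the 218 autosomal ERY peaks of that width, 188 did (86.2%, 80.9 to 90.5%). The remaining 158 such CMP peaks lay over narrower HSC peaks, as did 28 of the ERY peaks, and 2 ERY peaks lay over no HSC peak. Many of those over narrower HSC peaks overlapped 2 or more of them, so the HSC list also had breaks within a wide later peak. The ERY peak of 4264 bp at chr11:120670420-120674683 overlapped 4 HSC peaks, and the CMP peak of 3626 bp at chr10:80610278-80613903 overlapped 2. The 956 ERY peaks over very wide regions had a median width of 1189 bp, against 784 bp for autosomal ERY peaks elsewhere, and the 1132 CMP peaks had 1420 bp against 814 bp. A wide later peak is also more likely to touch a given region, which favours the larger medians over very wide regions.

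The 10 widest peaks differed from each other in how much of them stayed covered. The widest, at chr11:3080495-3100291 (19797 bp), was matched by 1 CMP peak of 19960 bp and 1 ERY peak of 19871 bp, which covered 99.7% of it each. The next, at chr9:3021797-3033340 (11544 bp), was covered over 93.8% by 3 CMP peaks and over 12.0% by 1 ERY peak of 1380 bp, which lay 9691 bp from its start. These 2 peaks thus differed widely in ERY, although CMP covered more than 90% of each. At chr4:141027162-141035791 (8630 bp), 2 CMP peaks covered 98.0% and 3 ERY peaks 94.5%. At chr5:109978659-109986829 (8171 bp), 2 CMP peaks covered 66.5% and 3 ERY peaks 53.0%, with the same inner stretch of over 2000 bp free of peaks in both lists.

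At chr2:174120388-174126930 (6543 bp), 1 CMP peak covered 97.2% and 2 ERY peaks 83.4%. The peak at chr17:39979741-39985976 (6236 bp) was covered over its full length in both, by 1 CMP peak of 6715 bp and 1 ERY peak of 6373 bp. At chr10:69451565-69457626 (6062 bp), 2 CMP peaks covered 76.6% and 3 ERY peaks 50.3%. At the first and the third of these positions ERY left more uncovered than CMP, and at the second neither left a base. At chr12:20232393-20238399 (6007 bp), CMP covered 63.3% and ERY 47.1%. A CMP peak of 4666 bp and the ERY peak of 4797 bp both began inside the HSC peak. They ran 1976 bp and 1967 bp past its end, where the HSC list holds a further peak. At chr15:76006782-76012734 (5953 bp), CMP covered 100% and ERY all but 2 bases. The tenth is the peak with 4 ERY pieces on chromosome 9 described above.

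**Figure D4:**
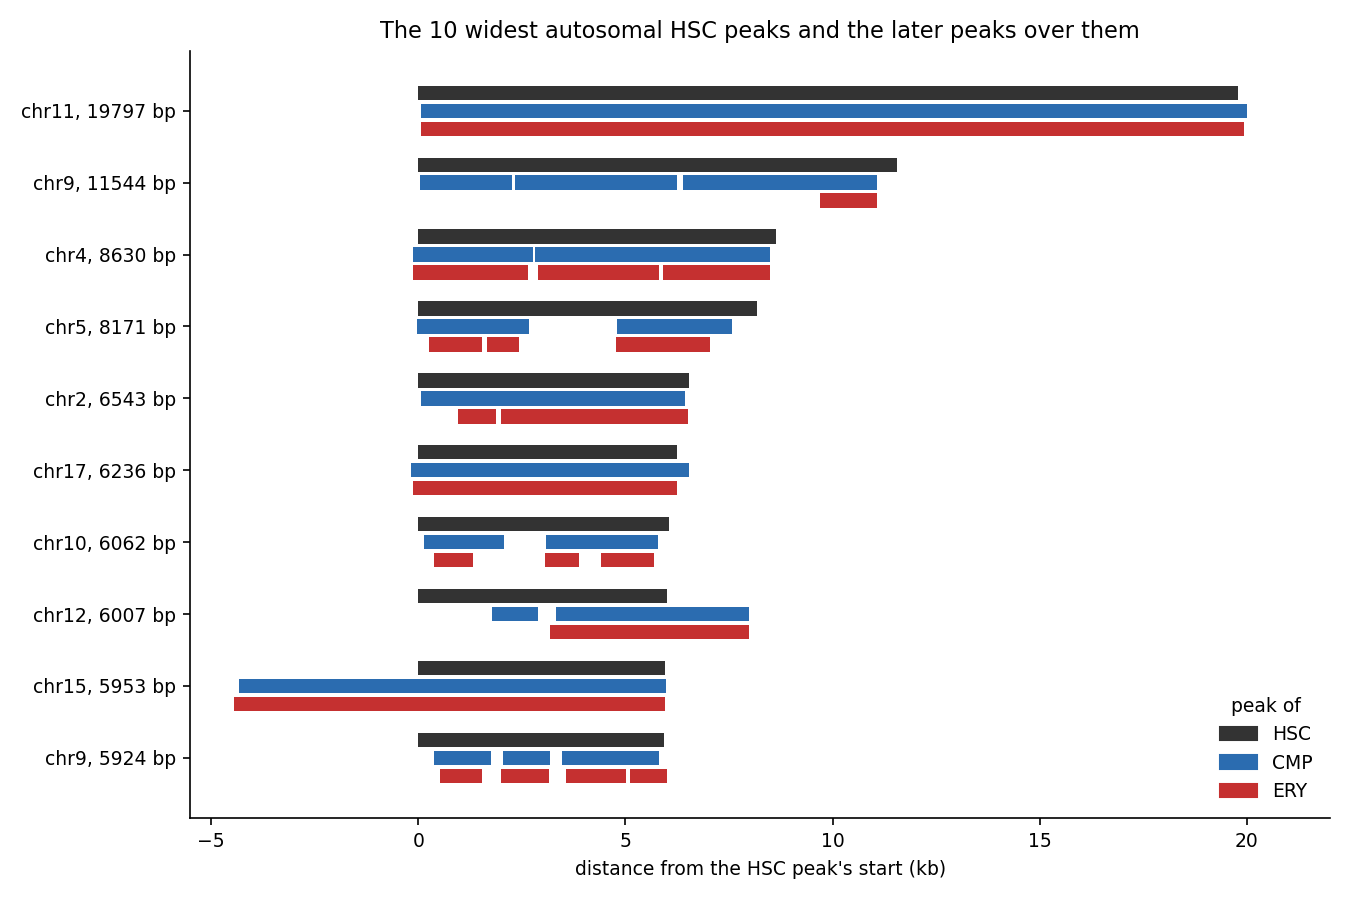
The 10 widest autosomal HSC peaks, widest at the top, drawn to scale from their start in kb (x axis), with the HSC peak in black, CMP peaks in blue and ERY peaks in red below it. The chromosome 11 peak of 19797 bp is covered end to end in both later lists, while the chromosome 9 peak of 11544 bp holds 3 CMP peaks and a single ERY peak of 1380 bp near its far end.

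Of the 5 widest peaks with at least 90% covered in ERY, 4 are among those above, on chromosomes 11, 4, 17 and 15. The fifth, at chr10:79437830-79442773 (4944 bp), was covered over 86.2% by 2 CMP peaks and over 92.5% by 2 ERY peaks, so that ERY covered slightly more of it than CMP. The later peaks that reached furthest beyond a very wide HSC peak lay on chromosomes 11, 15 and 5. On chromosome 15 the HSC list held 2 very wide peaks only 2 bp apart, at chr15:76002609-76006779 (4171 bp) and the 5953 bp peak above. A single CMP peak of 10313 bp and a single ERY peak of 10400 bp spanned both. At chr11:3049310-3051757 (2448 bp), a CMP peak of 9933 bp reached 7486 bp beyond the HSC peak, and ERY had no peak. At chr5:144008349-144010451 (2103 bp), 2 ERY peaks covered 85.2% and CMP covered 90.1%. One of these ERY peaks, 2798 bp wide, overlapped it by 42 bp and otherwise lay mostly over the very wide HSC peak 207 bp away at chr5:144005387-144008141, which gave the reach of 2756 bp.

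The 101 very wide peaks with a CMP peak and no ERY peak had a median width of 2178 bp and included a few long ones. The widest lay at chr11:2999952-3005230 (5279 bp), with 97.9% covered in CMP. At chr6:52152373-52157118 (4746 bp), 98.9% was covered by 1 CMP peak of 4695 bp. At chr8:91553577-91557374 (3798 bp) 2 CMP peaks covered 73.2%, and at chr19:7168448-7171808 (3361 bp) 2 covered 85.7%. At chr9:3008083-3011292 (3210 bp) a CMP peak of 495 bp covered 15.4%. The first 2 of these were nearly whole in CMP, and the last had only a short CMP peak left.

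The 35 without a peak in either later list were shorter, with a median of 2074 bp and a range of 2005 to 2933 bp. The widest 5 were 2 peaks on chromosome 11 (chr11:102637003-102639935 and chr11:87614480-87617309), 2 on chromosome 8 (chr8:48862236-48864827 and chr8:119632508-119634963) and 1 on chromosome 17 (chr17:6960796-6963211). They were 2416 to 2933 bp wide. The first had no other HSC peak within 10 kb, and the other 4 had 1 to 4. Over the 35 peaks the median number of HSC peaks within 10 kb was 2 (interval 2 to 3). Over the 759 with peaks in both later lists it was 3 (3 to 3), so these intervals touch. The 2 with an ERY peak and no CMP peak lay at chr5:136608532-136610632 (2101 bp), covered over 36.4% in ERY, and at chr7:106053073-106055101 (2029 bp), covered over 47.2%.

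Very wide peaks were unevenly placed over the chromosomes. They made up 1.70% of HSC peaks on chromosome 5 (109 peaks, interval 1.40 to 2.04%) and 1.61% on chromosome 17 (65 peaks, 1.25 to 2.05%). The lowest shares were 0.585% on chromosome 6 (25 peaks, 0.379 to 0.862%) and 0.619% on chromosome 14 (19 peaks, 0.373 to 0.964%). The share with a CMP peak was lowest on chromosome 3, with 27 of 30, and 100% on chromosomes 10, 13 and 18. The share with an ERY peak ran from 69.0% of 29 on chromosome 19 (49.2 to 84.7%) to 96.3% of 27 on chromosome 13 (81.0 to 99.9%), and these intervals overlap. The median percent covered in ERY ran from 38.9% on chromosome 3 to 71.8% on chromosome 18.

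**Figure D5:**
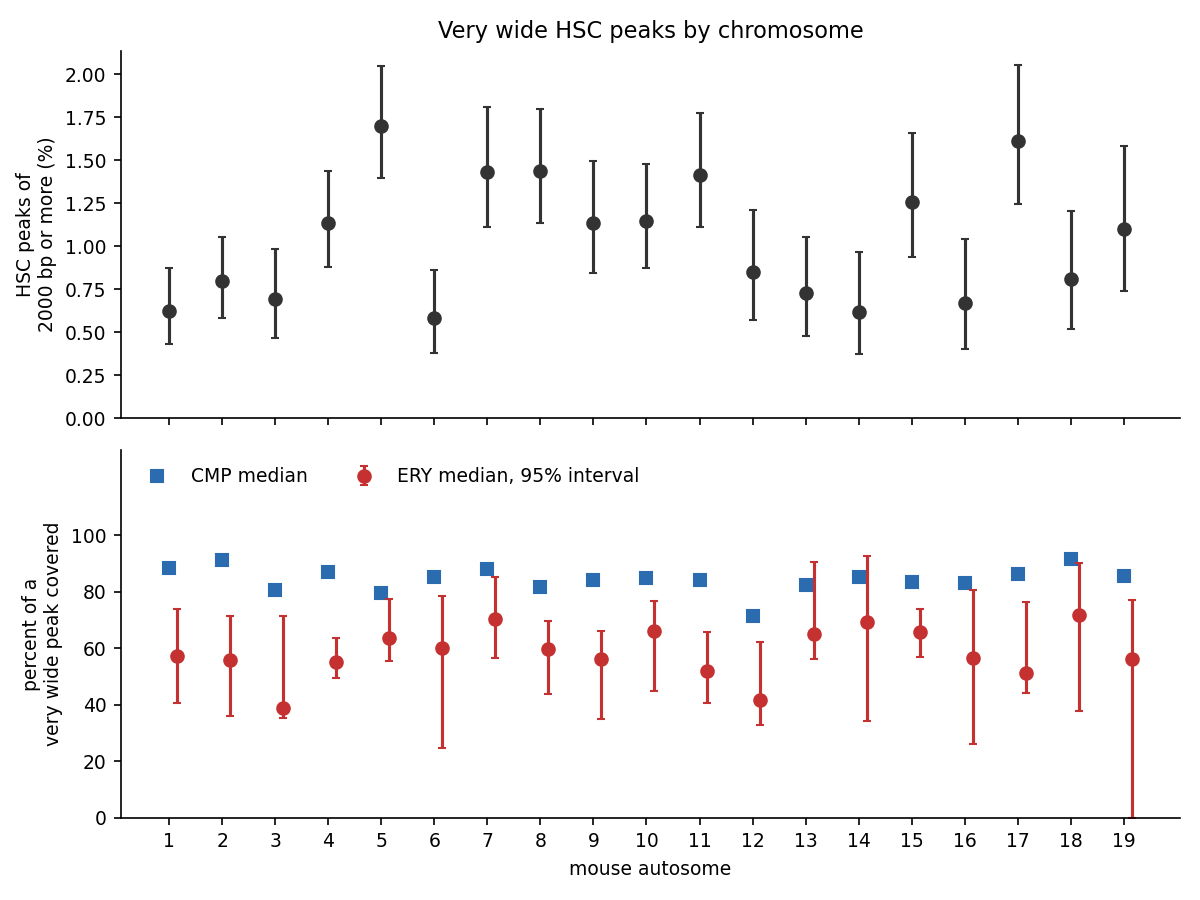
Very wide HSC peaks by mouse autosome (x axis). The upper panel gives their share among HSC peaks in percent with 95% exact binomial intervals, highest on chromosome 5 (1.70%), and the lower panel the median percent of a very wide peak covered in CMP (blue squares) and in ERY (red circles with 95% intervals of the median).

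Within chromosomes they were most frequent toward the distal ends. In the distal 10 Mb of the stretch spanned by HSC peaks, 194 of 11587 HSC peaks were very wide (1.67%, interval 1.45 to 1.92%), or 1.02 per Mb. Between the ends the values were 639 of 66502 (0.961%, 0.888 to 1.04%) and 0.314 per Mb, and in the proximal 10 Mb 64 of 5341 (1.20%, 0.924 to 1.53%) and 0.337 per Mb. The median percent covered in ERY was 56.7% in the distal part, 60.1% between the ends and 56.2% in the proximal part. ERY had a peak over 87.1%, 84.7% and 79.7% of the very wide peaks in these 3 parts, and the intervals of these shares overlap.

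They also lay near each other and near other HSC peaks. Another very wide peak lay within 100 kb of 342 of the 897 (38.1%, interval 34.9 to 41.4%) and within 10 kb of 114 (12.7%, 10.6 to 15.1%). Any other HSC peak lay within 10 kb of 86.7% of them, against 68.3% of the other autosomal HSC peaks. A longer peak does not widen this search, which was made outward from its edges. The megabase windows with the most very wide peaks were adjacent on chromosome 10. The window from 79 to 80 Mb held 15 of them among 135 HSC peaks, and 15 had a CMP peak and 14 an ERY peak, with a median of 82.2% covered in ERY. The window from 80 to 81 Mb held 12, all with a peak in both later lists and with a median of 72.6% covered in ERY. The third, on chromosome 5 from 114 to 115 Mb, held 10, of which 8 had a CMP peak and 8 an ERY peak, with a median of 51.4% covered in ERY. It shared its count with the window from 116 to 117 Mb on chromosome 5 and with that from 125 to 126 Mb on chromosome 8.

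A further group was set by a bound of 4 Mb, near the starts of the assembled chromosomes. These starts follow the unsequenced stretches that stand for the centromeres in mm9. There 16 very wide peaks began below 4 Mb, 6 on chromosome 9, 5 on chromosome 11, 2 on chromosome 8 and 1 each on chromosomes 4, 5 and 13. CMP covered 87.5% of their 75002 bp and ERY 47.3%, against 76.4% and 57.1% for the 881 peaks further along. Without the 19797 bp peak the values for the other 15 were 83.1% in CMP and 28.5% in ERY. The median percent covered in ERY was 31.4% over the 16 and 59.2% over the 881. Not all of the 16 lay at the start itself. Further in, chr11:3420369-3423002 had no ERY peak, and chr11:3915637-3917685 was covered over 83.5% in ERY. The 6 on chromosome 9 lay within chr9:2999801-3038746 and were the most numerous run with gaps of at most 10 kb. CMP covered 84.0% of the bases of these 6 and ERY 30.4%. The 5 on chromosome 11 were covered over 97.3% in CMP and 66.6% in ERY, where most of the ERY bases belonged to the 19797 bp peak and 3 of the 5 had no ERY peak. Satellite repeats are known near mouse centromeres. Repeat content and ease of unique read placement at these positions were not examined, and their part in these values was not tested.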

How the data were processed

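Per the labels' protocols, 36 bp single-end reads from an Illumina Genome Analyzer that could be placed uniquely defined the MBD2-bound part of the genome. Positions are on mm9, the build that the submitters' processing notes name. The authors deposited 1 list of peaks per cell type, exported from a genome browser table per the file headers, with chromosome, start and end and no score. The sources used here do not give the aligner, the caller, its threshold or the role of the supernatant. Starts are printed 1-based.

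Peaks of 2 lists were called overlapping from 1 shared bp. Percent covered is the share of an HSC peak's bases inside later peaks, and no list held overlapping peaks of its own. Shares carry 95% exact binomial (Clopper-Pearson) intervals and medians carry order-statistic intervals, for counting error only. No test was run. Regions were named by fixed rules of width, class, coverage, number of pieces and reach. The rule for very wide peaks, the bounds and the named classes were chosen with earlier results of these data known. Python 3.11.15, numpy 2.4.6, pandas 2.3.3, scipy 1.17.1 and matplotlib 3.10.9 were used. Counts and covered bases were identical to those of bedtools 2.31.1 for all 83430 autosomal HSC peaks. On data simulated from the HSC list, where 60.6% of 897 very wide peaks were kept and 13.0% divided, 60.6% and 13.0% were found. Gene features, motifs and sequences were not used here.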

Additional observations from a re-analysis of the deposited data

How the results depend on the processing

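The values depended on the width rule and on how peaks were joined, and moved little when any single chromosome was left out. Leaving out each autosome in turn left all 171 values inside their interval, or within 1.5 times for the number of peaks. Each time 788 to 878 of the 897 peaks stayed, so the values could hardly move. This does not show that the chromosomes are alike. Leaving out peaks that begin below 4 Mb, or counting a later peak within 500 bp, moved no value outside its interval. With a rule of 1500 bp there were 3247 peaks, of which 90.7% had a CMP peak and 71.9% an ERY peak, with medians of 81.2% and 51.7% covered. ERY then covered at least 90% of 12.0% of them and under 10% of 28.2%, 9.15% had 2 or more ERY peaks and 59.2% had another within 100 kb. With 3000 bp there were 122, with 100% and 94.3% overlapped, medians of 90.8% and 67.2% covered, and 19.7%, 5.74%, 42.6% and 21.3% for the same 4 shares. Merging HSC peaks within 500 bp gave 2713 regions, with 93.9% and 75.6% overlapped, medians of 65.3% and 38.2% covered, and 4.83%, 24.4%, 25.1% and 58.7%. Merging adds the uncovered bases between peaks, by construction. With the wider 50% of each later list, 91.2% and 77.4% were overlapped, the medians were 81.8% and 53.8%, 22.9% were under 10% covered in ERY and 11.3% had 2 or more ERY peaks, since fewer later peaks were left. Asking for 50% of the peak to be covered gave 84.1% for CMP and 59.3% for ERY. For the change with the width rule the cause was not tested. No paired analysis was possible because each cell type has 1 library. Without read counts, how far depth or peak calling sets the length of a peak in each list is unknown.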

Other observations

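The X chromosome, outside the rule for autosomes, carried 65 HSC peaks of 2000 bp or more, with a median width of 2336 bp. All 65 had a CMP peak (exact binomial interval 94.5 to 100%), and 50 had an ERY peak (76.9%, 64.8 to 86.5%). CMP covered a median of 92.0% of these peaks (interval of the median 89.2 to 94.9%) and ERY 61.1% (48.6 to 72.3%). Pieces were few, with 2 or more CMP peaks over 9.23% of them (3.46 to 19.02%) and 2 or more ERY peaks over 7.69% (2.54 to 17.0%), against 28.3% and 19.96% of the autosomal very wide peaks. The difference between X and the autosomes was not tested.

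Several very wide HSC peaks lay in tight runs. With gaps of at most 10 kb between neighbours, the 897 peaks formed 783 single peaks, 48 pairs, 4 runs of 3 and the run of 6 on chromosome 9. The runs of 3 differed in coverage. The run at chr5:114803590-114818808 had 50.1% of its peak bases covered in CMP and 40.8% in ERY. The run at chr8:125407456-125420836 had 91.5% covered in CMP and 87.2% in ERY. The run at chr15:88987222-88998913 had 93.6% and 68.4%, and that at chr17:27247193-27256232 had 88.3% and 70.4%.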
